A study of Homo sapiens with 6 samples.

Results

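The transcripts described here come from 10 genes grouped as feedback inhibitors and outputs of ERK signalling. The inhibitors are the phosphatase genes DUSP1, DUSP4, DUSP5, DUSP6 and DUSP7 and the adaptor genes SPRY2, SPRY4, SPRED1 and SPRED2. The transcription factor gene ETV5 is the output. Whether ERK drives each of the 10 genes in these cells was not measured. They were chosen by name from a table of 25365 gene rows, and all 10 were found and passed the filter on low values. The table comes from RNA-seq of poly(A) RNA from MDA-MB-231, a cell line derived from a triple-negative breast cancer. Cells were harvested 48 h after transfection with siRNA at 20 nM. Of the 6 libraries, 3 were from cells given a control siRNA (si-Control, Ambion AM4611) and 3 from cells given a single siRNA against NRDE2 (si-NRDE2-2, Ambion s30064). The NRDE2 protein works in the nucleus as a partner of the helicase MTREX. With 1 siRNA, effects of its sequence and of NRDE2 loss cannot be told apart. Whether replicates came from separate cultures is not stated. The p-values therefore reflect the spread among these libraries only, and that spread may be technical.

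ERK is the last kinase of the RAS, RAF and MEK cascade, and in MDA-MB-231 cells this cascade is known to be strongly active. Active ERK induces transcription of several of its own inhibitors. DUSP proteins remove the phosphates from ERK and related kinases, Sprouty proteins act on the pathway between receptors and RAF, and SPRED proteins bring the RAS-inactivating protein neurofibromin to the membrane. ETV5, a factor of the ETS family, is an output of the pathway rather than an inhibitor, and its mRNA is widely used with those of DUSP6 and SPRY4 as a readout of ERK activity.

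NRDE2 mRNA was 3.80 to 4.45 FPKM in the control libraries and 0.229 to 0.234 FPKM in the knockdown libraries, so each library matched its label. Estimated depth ran from 42900000 to 59000000 fragments per library. The line's mesenchymal markers VIM, CD44, CAV1, FN1 and AXL summed to between 1756 and 1893 FPKM, of which VIM made up most. Within that sum FN1 (67.0 and 108 FPKM in control and knockdown) and CD44 (152 and 182 FPKM) were higher and AXL (195 and 156 FPKM) lower in every knockdown library. Of 7 luminal markers ESR1, PGR and FOXA1 were under 0.05 FPKM throughout, and CDH1 was at most 0.445 FPKM. The others were present, with ERBB2 at 12.8 and 10.6 FPKM, EPCAM at 8.20 and 7.79 FPKM and GATA3 at 2.09 and 2.19 FPKM. The luminal sum was 23.1 to 23.8 FPKM in the control and 20.8 to 21.1 FPKM in the knockdown libraries. A list of 5 blood and endothelial markers summed to 1.89 to 2.49 FPKM in the control and 3.35 to 3.66 FPKM in the knockdown libraries, mostly from CD14 and PECAM1. The part of these marker differences in the results was not tested. The defining blood cell markers PTPRC and CD3E stayed at or below 0.0618 FPKM, CD3E being listed at 0 in 2 control libraries. At this depth even the least covered of the 10 genes had about 1900 fragments in the shallowest library, which gives a counting error near 2.27%. In bulk RNA, fewer cells of a kind and less RNA per cell cannot be told apart.

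Of the 10 genes, 5 rose and 3 fell after NRDE2 knockdown by limma at an adjusted p under 0.05, and 2 did not pass. The share called, 80%, stands against 44.0% of the 11789 genes tested, of which 20.9% rose and 23.0% fell. SPRED1 rose to 1.85 times its control level and DUSP6 to 1.48 times, while DUSP5 fell to 0.673 times and DUSP1 to 0.817 times. DUSP7, SPRY4 and DUSP4 rose by less, and SPRY2 fell by less. The inhibitors did not move as a block: their changes ran from -0.57 to 0.88 on the log2 scale, with a median of 0.09 over the 10 genes, against -0.02 over all genes tested. Their median absolute log2 change was 0.17, against 0.14 for all genes. The 2 groups of libraries did not overlap for 8 of the 10 genes and for 53.5% of all genes. The count of 5 that rose dropped to 3 when control replicate 1 or knockdown replicate 2 was left out.

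**Figure D1:**
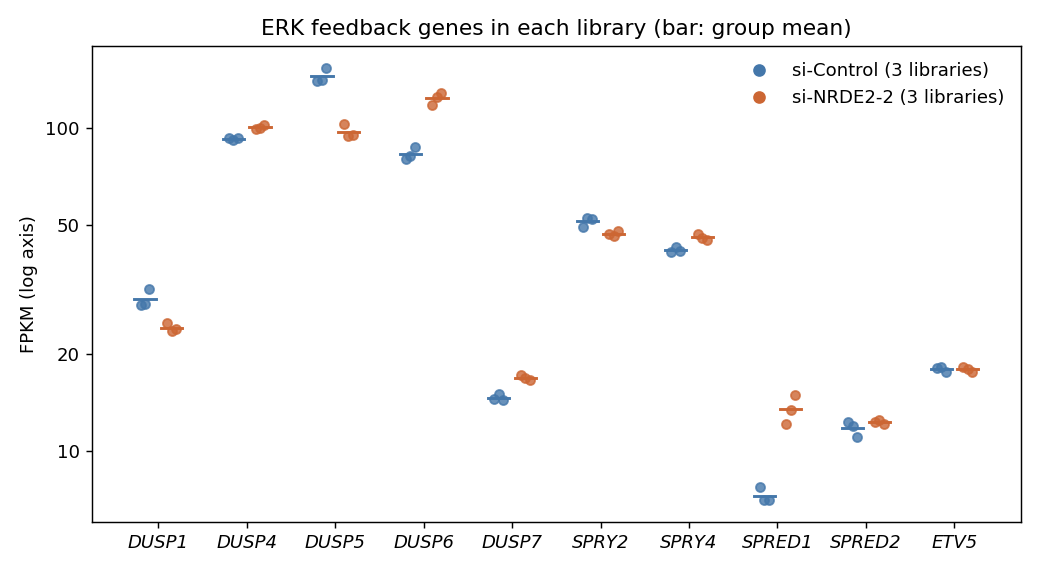
FPKM (log axis) of the 10 genes in each of the 3 si-Control and 3 si-NRDE2-2 libraries, with a bar at each group mean. SPRED1 and DUSP6 were higher and DUSP5 and DUSP1 lower in every knockdown library, and the points of SPRED2 and ETV5 overlap between groups.

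In the control cells DUSP5 was the most abundant transcript per length at 145 FPKM, followed by DUSP4 (92.8), DUSP6 (83.4), SPRY2 (51.6), SPRY4 (42.0), DUSP1 (29.5), ETV5 (17.9), DUSP7 (14.6), SPRED2 (11.8) and SPRED1 (7.27). No neighbours in this order had overlapping ranges across the control libraries. After knockdown DUSP6 stood first at 124 FPKM, and 3 pairs of neighbours overlapped: DUSP4 with DUSP5, SPRY2 with SPRY4, and SPRED1 with SPRED2.

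Letters of 3 of the transcripts are shown first, because an earlier scan of these same fold changes had picked 3 words, GACGTA, then GACAGTA and also GACTGTA, as common in the 3′ UTRs of genes that rose. They were searched on the transcript strand only. One of the 3 words lay in the 3′ UTR of SPRED1, DUSP6 and ETV5 among the 10 genes, and in 17.96% of the 11060 tested genes with a 3′ UTR. The 3′ UTRs of SPRED1, DUSP6 and ETV5 are 5585, 2022 and 2331 bases long, against a median of 1100 in the tested genes. A longer 3′ UTR is likelier to hold a given word, so that share is not matched for length. The sites are given with 30 bases each, from GENCODE release 29 transcripts, 5′ to 3′, with the word in capitals.
SPRED1: aaaggttattagGACAGTAataaaaaatta
DUSP6: ctagaatggaccGACTGTAccgtgtatatg
ETV5: attaacacttttGACAGTAttttgttttgc
The word starts at base 5171 of the 3′ UTR in SPRED1, at 1388 in DUSP6 and at 724 in ETV5. The carriers thus include the 2 genes with the largest rise and 1 gene, ETV5, that did not pass, and DUSP7, SPRY4 and DUSP4 rose without such a word. Since the words came from these data, their part in the result was not tested.

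Of the phosphatases that act in the nucleus and are induced as early genes, DUSP5 and DUSP1 fell and DUSP4 rose slightly. DUSP5, which is selective for ERK, was 140.4, 141 and 154 FPKM in the control and 103, 94.7 and 95.4 FPKM in the knockdown libraries, in the order of replicates 1, 2 and 3 used throughout. Every knockdown library lay below every control library by a wide margin. The log2 fold change was -0.57 ± 0.05 (SE; limma adjusted p = 1.1e-05), larger in absolute size than that of 94.8% of tested genes. A pseudogene copy, DUSP5P1, was listed at only 0.449 to 0.671 FPKM.

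DUSP1, also known as MKP-1, acts on JNK and p38 as well as ERK. It was 28.3, 28.5 and 31.8 FPKM in the control and 24.9, 23.6 and 23.9 FPKM in the knockdown libraries. The groups did not overlap, with control replicate 3 the highest. Its log2 fold change was -0.29 ± 0.05 (limma adjusted p = 0.0011). DUSP4, or MKP-2, a nuclear phosphatase of ERK and JNK, was 93.3, 92.1 and 93.0 FPKM in the control and 99.8, 100.1 and 102 FPKM in the knockdown libraries. Here too the groups did not overlap, but the rise was small at 0.12 ± 0.04 (limma adjusted p = 0.0326). That call depended on single libraries: leaving out control replicate 1 gave an adjusted p of 0.0566, control replicate 2 gave 0.121, knockdown replicate 2 gave 0.105 and knockdown replicate 3 gave 0.136. It was also lost with quantile normalization (0.0907, with a log2 change of 0.08) and with a constant prior variance (0.0512).

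Both cytoplasmic phosphatases, which are selective for ERK, rose. DUSP6, or MKP-3, the classic feedback inhibitor of FGF and ERK signalling, was 80.6, 82.2 and 87.5 FPKM in the control and 118, 125 and 128 FPKM in the knockdown libraries. The lowest knockdown library stood well above the highest control library. The log2 fold change was 0.57 ± 0.05 (limma adjusted p = 7.0e-06). DUSP7, its close relative, was 14.4, 15.0 and 14.4 FPKM in the control and 17.1, 16.8 and 16.6 FPKM in the knockdown libraries. The groups were again apart, by less than for DUSP6, and the log2 fold change was 0.21 ± 0.04 (limma adjusted p = 0.0030).

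The summed level of the 5 DUSP transcripts was 366 ± 13.3 FPKM (SD, n = 3) in the control and 363 ± 3.04 FPKM in the knockdown libraries, a ratio of 0.994. The sum thus moved by less than the SD of the control libraries while its makeup changed. DUSP5 made up 39.7% ± 0.689 of the sum in the control and 26.9% ± 1.28 in the knockdown libraries, and DUSP6 22.8% ± 0.220 and 34.1% ± 1.35. DUSP5 led in all 3 control libraries and DUSP6 in all 3 knockdown libraries. The ratio of DUSP6 to DUSP5, a pair chosen after its values were seen, was 0.567 to 0.584 in the control and 1.15 to 1.34 in the knockdown libraries. These sums and ratios are descriptions over genes whose single changes are given above.

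**Figure D2:**
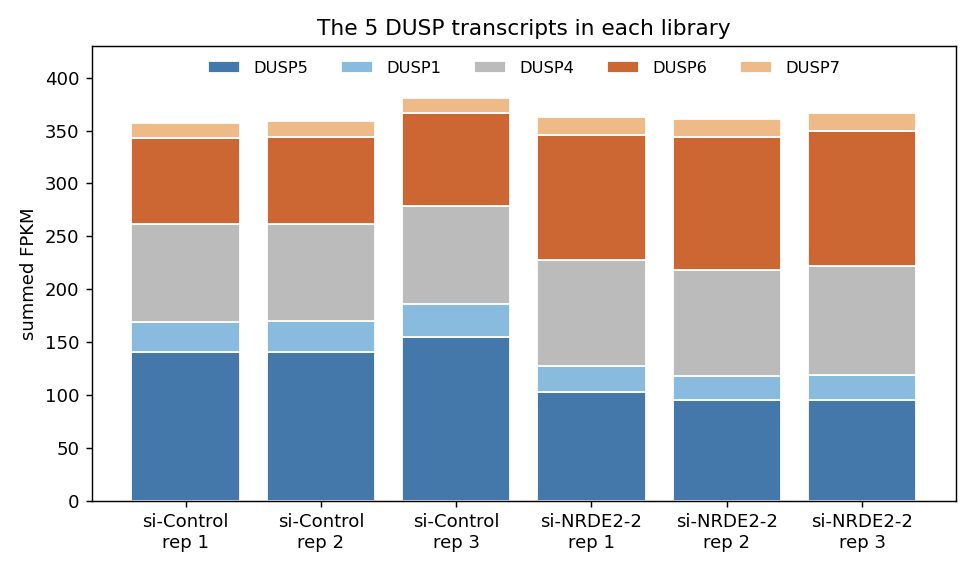
Summed FPKM of the 5 DUSP transcripts in each library, stacked by gene. The bars have like heights, 357 to 381 FPKM, while the DUSP5 share is smaller and the DUSP6 share larger in the 3 si-NRDE2-2 libraries.

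The Sprouty transcripts moved little and in opposite directions. SPRY2, which binds GRB2 and the ubiquitin ligase CBL, was 49.5, 52.8 and 52.5 FPKM in the control and 46.9, 46.3 and 48.2 FPKM in the knockdown libraries. SPRY4, an inhibitor of RAS and RAF activation, was 41.3, 43.0 and 41.6 FPKM in the control and 47.0, 45.8 and 45.0 FPKM in the knockdown libraries. The groups did not overlap for either gene, and the gap between them was narrow for both. The log2 fold change was -0.13 ± 0.04 for SPRY2 (limma adjusted p = 0.0309) and 0.13 ± 0.04 for SPRY4 (limma adjusted p = 0.0248). The SPRY2 call was lost when control replicate 2 was left out (adjusted p = 0.131), when any knockdown replicate was (0.0548, 0.131 and 0.0508 for 1, 2 and 3) and with a constant prior variance (0.0576). The SPRY4 call was lost when control replicate 1 (0.0728) or knockdown replicate 1 or 2 (0.0526 and 0.0865) was left out.

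SPRED1 had the largest change of the 10 genes. SPRED1, the neurofibromin-binding adaptor mutated in Legius syndrome, was 7.71, 7.05 and 7.04 FPKM in the control and 12.1, 13.4 and 15.0 FPKM in the knockdown libraries. All knockdown libraries were far above the control, and their coefficient of variation of 10.6% was the widest within any group of the 10 genes. The log2 fold change was 0.88 ± 0.07 (limma adjusted p = 5.4e-06), and 0.80 to 0.95 when single libraries were left out. It was larger in absolute size than that of 98.8% of tested genes. Its mRNA is the longest (7780 bases) and has the lowest GC content (38.9%, against a median of 48.6% among tested transcripts) of the 10. After loess removal of GC and length trends the change was 0.84 (limma adjusted p = 3.4e-07).

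SPRED2, its close relative with the same partner, was 12.3, 11.9 and 11.1 FPKM in the control and 12.3, 12.5 and 12.1 FPKM in the knockdown libraries. The groups overlapped, and the log2 difference of 0.06 ± 0.05 did not pass (limma adjusted p = 0.351, 95% interval -0.05 to 0.18). The ratio of SPRED1 to SPRED2 was 0.592 to 0.636 in the control and 0.984 to 1.23 in the knockdown libraries. SPRED1 was thus the lower of the pair in all control libraries and about level with or above SPRED2 after knockdown. The 4 Sprouty and SPRED transcripts together summed to 113 ± 1.96 FPKM (SD, n = 3) in the control and 119 ± 1.24 FPKM in the knockdown libraries. SPRED1 made up 6.46% of that sum before and 11.3% after knockdown.

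ETV5, the output factor of the group, was 18.1, 18.1 and 17.6 FPKM in the control and 18.3, 17.99 and 17.5 FPKM in the knockdown libraries. The groups overlapped fully, and no library stood apart. The log2 difference was -0.00015 ± 0.042, with a 95% interval of -0.09 to 0.09 (limma adjusted p = 0.998), and its sign changed with the scaling. DUSP6, read in the same way as ETV5 in assays of ERK output, lay outside that interval at 0.57.

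**Figure D3:**
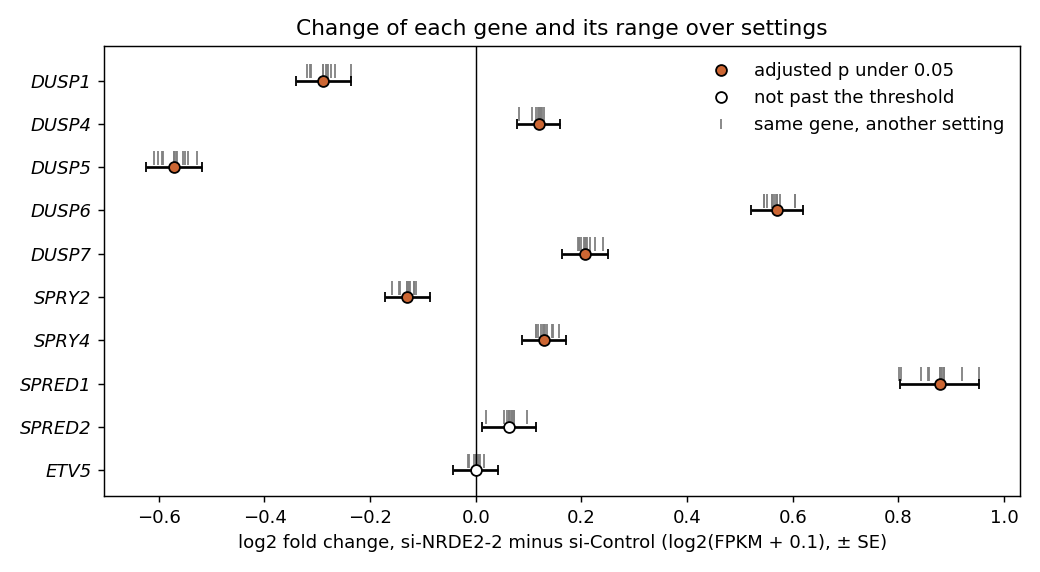
Log2 fold change of each gene, si-NRDE2-2 minus si-Control, on the log2(FPKM + 0.1) scale with its SE, and grey ticks for the same gene under 16 other settings. SPRED1, DUSP6, DUSP5, DUSP1 and DUSP7 keep their side of 0 with room, while DUSP4, SPRY2 and SPRY4 sit within 0.16 of it and ETV5 straddles it.

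The promoters of DUSP6, DUSP1 and SPRED1 are shown because these genes had large changes and are among the 7 of the 10 genes matched in the RefSeq promoter table used here (GRCh38.p14). DUSP5, which had the largest fall, was not matched, nor were DUSP4 and ETV5, so no promoter of these genes was searched. Each window runs from 250 bases before to 50 after the start of the gene, 5′ to 3′. Capitals mark the core letters TGACG of the cyclic AMP response element (CRE) on either strand, and the full element where its letters are complete.
DUSP6: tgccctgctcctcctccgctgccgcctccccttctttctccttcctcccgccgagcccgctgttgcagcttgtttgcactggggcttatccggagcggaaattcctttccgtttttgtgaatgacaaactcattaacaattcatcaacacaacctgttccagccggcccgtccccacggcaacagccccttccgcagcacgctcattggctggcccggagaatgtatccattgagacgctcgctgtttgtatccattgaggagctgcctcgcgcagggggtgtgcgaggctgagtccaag
DUSP1: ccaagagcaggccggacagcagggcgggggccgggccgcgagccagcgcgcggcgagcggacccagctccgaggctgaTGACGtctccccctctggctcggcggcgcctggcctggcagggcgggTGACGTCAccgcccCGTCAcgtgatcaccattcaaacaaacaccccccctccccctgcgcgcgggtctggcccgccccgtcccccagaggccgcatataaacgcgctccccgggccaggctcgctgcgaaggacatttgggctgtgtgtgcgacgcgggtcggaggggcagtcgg
SPRED1: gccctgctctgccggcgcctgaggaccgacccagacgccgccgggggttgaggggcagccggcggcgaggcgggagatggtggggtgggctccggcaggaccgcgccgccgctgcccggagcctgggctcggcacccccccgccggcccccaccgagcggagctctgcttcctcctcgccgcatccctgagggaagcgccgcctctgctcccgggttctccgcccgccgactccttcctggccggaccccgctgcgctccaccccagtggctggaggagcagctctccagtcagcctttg
The DUSP6 window is chr12:89352452-89352751 on the minus strand, the DUSP1 window chr5:172771146-172771445 on the minus strand, and the SPRED1 window chr15:38252586-38252885 on the plus strand. DUSP1 had 1 full element with the letters TGACGTCA, found in 1.85% of 35116 windows of this length. It had 4 matches to the core letters on either strand, of which 2 are the overlapping copies within that element, and 24.6% of windows held at least 1 match. The DUSP6 and SPRED1 windows held no match to either. None of these 3 windows matched the AP-1 letters TGACTCA (in 4.95% of windows), the ETS letters CCGGAAG (10.3%), the CIC octamers TGAATGAA (1.65%) or TGAATGGA (1.03%), or the CArG box of serum response factor (1.29%), on either strand. Of the other matched genes, SPRY2, SPRY4 and SPRED2 each had 1 core match. A second window of SPRED2 held 1 match to the AP-1 letters. The 7 matched genes had 10 windows in all, so some were searched in more than 1 window. These are matches of letters in a short window and not a measurement of binding.

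In the list of other typical MAPK phosphatases, which also holds their inactive relative STYXL1, 4 of 6 genes were tested. The 1 that rose was DUSP10, which acts on JNK and p38 (9.47 ± 0.553 to 11.7 ± 0.698 FPKM, SD, n = 3). Its log2 fold change was 0.30 ± 0.06 (limma adjusted p = 0.0022). DUSP16 (6.21 and 6.52 FPKM), DUSP8 (1.33 and 1.27 FPKM) and STYXL1 (25.5 and 24.98 FPKM) did not pass, and DUSP2 and DUSP9 were under 0.53 FPKM. Among 8 tested atypical DUSP genes DUSP22 rose (0.24 ± 0.05) and DUSP14 fell (-0.20 ± 0.04). The other Sprouty, SPRED and PEA3 family genes gave 2 that rose and 1 that fell of 4 tested. Of all genes tested, 20.9% rose and 23.0% fell. ETV1, a PEA3 factor like ETV5, went from 11.0 ± 0.218 to 14.9 ± 1.29 FPKM (0.43 ± 0.06, limma adjusted p = 2.3e-04), and SPRED3 rose by 0.31 ± 0.08. ETV4, the third PEA3 factor, fell by 0.19 ± 0.05 on the log2 scale, from 35.2 to 30.8 FPKM. Of the 3 PEA3 factors, then, 1 rose, 1 fell and ETV5 did not pass. SPRY1, at 8.19 and 8.90 FPKM, did not pass, and SPRY3 was under 0.012 FPKM.

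Other outputs of ERK were split in direction as well, as were the tested genes at large. Of 26 tested feedback and delayed output genes 7 rose and 8 fell, with a median log2 change of -0.01. Of all genes tested, 20.9% rose and 23.0% fell, with a median of -0.02, so such a split is common. The list is not confined to genes that ERK induces, as it also holds the cell death genes BMF and BCL2L11. BMF fell by 0.42 ± 0.09 and BCL2L11 did not pass (both named after their values were seen). The counts are therefore not a measure of ERK activity. FOSL1, the AP-1 subunit FRA1, went from 215 ± 8.99 to 141 ± 12.6 FPKM (-0.61 ± 0.07, limma adjusted p = 3.2e-05), the largest fall in this list. The ephrin receptor gene EPHA4 rose by 0.51 ± 0.07, while the GTPase gene GEM fell by 0.27 ± 0.04 and the sphingosine kinase gene SPHK1 fell by 0.43 ± 0.07. IER3 was listed at 0 in all 6 libraries, which can be a failed estimate. Of 15 tested immediate early genes 3 rose and 5 fell, with a median of -0.08. ATF3 fell by 0.41 ± 0.04, MYC fell by 0.41 ± 0.05, the mRNA decay gene ZFP36 fell by 0.37 ± 0.05 and the nuclear receptor gene NR4A1 fell by 0.57 ± 0.09.

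Upstream, the RAS to ERK cascade had 6 of 22 genes that rose and 3 that fell, with a median of 0.01. The shares over all genes tested were 20.9% and 23.0%. NRAS went from 17.4 ± 0.188 to 40.6 ± 2.66 FPKM (SD, n = 3), with a log2 fold change of 1.21 ± 0.05 (limma adjusted p = 3.8e-08). It carries GACGTA in its 3′ UTR, as does the scaffold gene KSR1 (0.66 ± 0.10). In the 10 lists 5 tested genes carry this word. It was picked from these same fold changes as common in genes that rose, which favours risers among its carriers. Its part was therefore not tested, and 3′ UTR length was not matched. NRAS, KSR1 and MAP2K4, the gene of a kinase upstream of JNK, rose. DYRK1A (0.03 ± 0.05) and PPP2R1A (-0.02 ± 0.05) did not pass and are named after their values were seen. The RAS exchange factor gene SOS2 (0.34 ± 0.06) also rose and carries none of the 3 words. Of 20 partners of the inhibitors and other brakes on RAS 3 rose and 2 fell, with a median of 0.05. The RAS GTPase-activating gene RASA1 rose by 0.31 ± 0.05, the ubiquitin ligase gene NEDD4 by 0.43 ± 0.05 and the phosphatase 2A gene PPP2CA by 0.18 ± 0.04. SIAH2 fell by 0.27 ± 0.06, and NF1, the partner of SPRED1 (named after its values were seen), did not pass at 3.73 and 4.09 FPKM. None of the 3 tested genes of the CIC repressor complex passed by limma, and 0 had an unadjusted p under 0.05: CIC was at 10.5 and 10.9 FPKM, ATXN1 at 8.11 and 7.81 FPKM and ATXN1L at 7.11 and 6.46 FPKM.

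Over the 115 tested genes of all 10 pathway lists, 43.5% were called, 27 higher and 23 lower, which is close to the 44.0% of all genes. One of the 3 words lay in the 3′ UTR of 8 of the 27 that rose, 6 of the 23 that fell and 17 of the 65 not called. The words came from these same data, so their part was not tested.

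**Figure D4:**
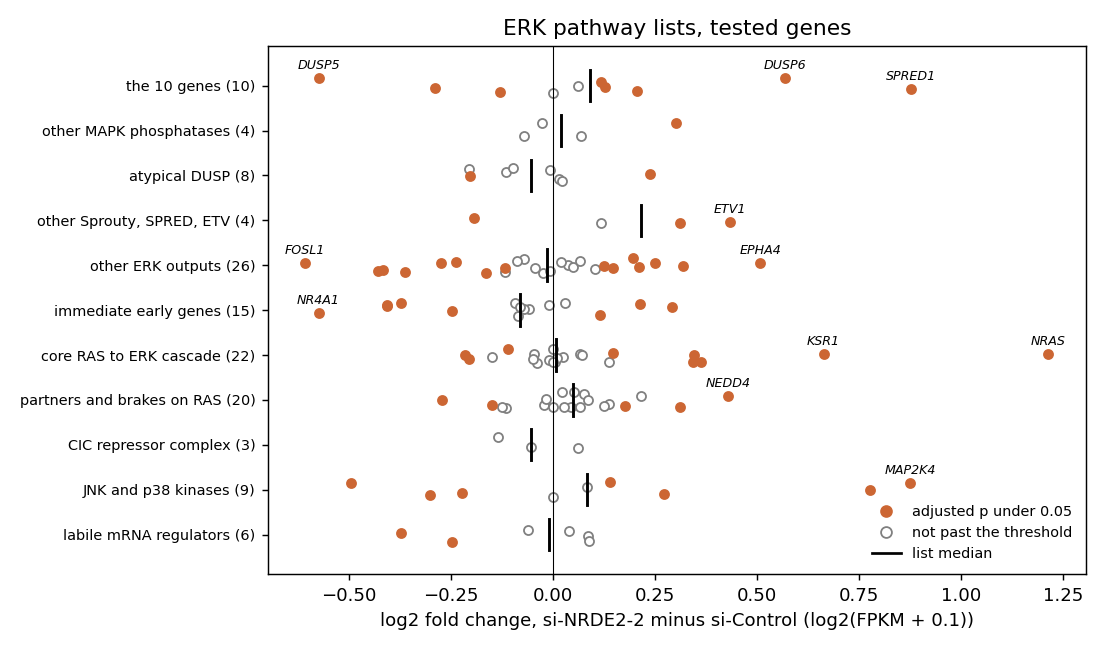
Log2 fold change of the tested genes of the 10 ERK genes and each pathway list, with filled points past an adjusted p of 0.05 and a black line at each median (number of genes in brackets). NRAS, SPRED1 and MAP2K4 lie farthest to the right, and the medians lie between -0.08 and 0.22.

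Among all tested genes, those whose log2 values followed SPRED1 most closely over the 6 libraries, after centring each gene on its mean, were GPR137B, the kinase gene SLK and MGAT4A (Pearson r = 0.998, 0.998 and 0.997). For DUSP5 they were FADS3, the integrin gene ITGB2 and BPHL (r = 0.997, 0.999 and 0.996). Since the 2 groups dominate such profiles, 998 genes had an r over 0.95 with SPRED1 and 926 with DUSP5, so closeness of this kind is common. Annotated antisense genes overlap 4 of the 10, DUSP1, DUSP6, SPRY4 and ETV5. The strand setting of the counting is not given, so reads of each pair cannot be told apart.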

How the data were processed

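The table deposited by the authors holds FPKM values (fragments relative to transcript length and sequencing depth) for each gene and library. The submitters' processing notes list STAR 2.5.1b and DESeq2 1.10.1 with the build hg19, without roles. The program behind the FPKM values, its annotation and its strand setting are not given in the sources used here. Another 4 columns, filled in for 3 rows, were not used.

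FPKM values were not rescaled. A gene was tested if 3 or more libraries reached 1 FPKM, and small RNA rows were left out. The log2(FPKM + 0.1) values went into a linear model in limma 3.58.1 (R 4.3.3) that had group as the only term and a trended, robust prior variance. Benjamini-Hochberg adjustment ran over 11789 genes, and an adjusted p under 0.05 was called. Fold changes on this scale are smaller than true ones for low genes, and ± after a log2 change is a standard error. Fits were tested on simulated data. Alternatives were other pseudocounts, filters, scalings and variance models, the replicate number as a block, an exact permutation test and each library left out. Removal of GC and length trends was added after seeing the data.

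Steps between low values gave an estimate of depth: 34.1% of 965 low genes had whole multiples of 1 step within a relative tolerance of 0.02, and 297 of them set the scale (quartiles 52300000 and 71700000 fragments for si-Control replicate 1). The 10 genes and the pathway lists were chosen with earlier results of these data known. From a pathway list every called gene is named where 4 or fewer passed, otherwise the 4 with the smallest adjusted p, and small families are given in full. One gene that this rule names is not reported here. Transcripts and 3′ UTRs came from GENCODE release 29, 1 transcript per gene, and promoters from RefSeq.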

Additional observations from a re-analysis of the deposited data

How the results depend on the processing

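Each of the 10 genes kept its direction under every alternative fit, except ETV5, whose log2 difference was 0.0054 with GC and length trends removed, 0.0028 with quantile normalization and 0.0051 with equal medians, and -0.014 to 0.016 when single libraries were left out. DUSP1, DUSP5, DUSP6, DUSP7 and SPRED1 kept their call under all 16 alternative fits. DUSP4 lost it with quantile normalization (log2 change 0.082), with a constant prior variance (0.12) and with the replicate block (0.12), SPRY2 with a constant prior variance and the replicate block (-0.13 in both), and SPRY4 with the replicate block (0.13). Without single libraries the changes ran from 0.11 to 0.13 for DUSP4, -0.16 to -0.11 for SPRY2 and 0.11 to 0.15 for SPRY4. The count of genes that rose was 3 with the replicate block and 3 to 5 without single libraries. Whether same-numbered libraries shared a batch is not stated. Correlations of their deviations were -0.12, 0.11 and -0.12, which cannot settle it with 3 libraries per group. Under the replicate block 4686 of all genes were called, against 5185 without it. The exact permutation test of 3 against 3 libraries gave 0.10 for each of the 8 called genes, the smallest p it allows, so it says nothing about stability. The cause of the lost calls was not tested. The counting error of about 2.27% holds for the least covered of the 10 genes in the shallowest library. For scarcer genes, such as MAPK11 at 1.06 FPKM in the control libraries, it can be larger. The part of depth in the results was not tested.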

Other observations

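Genes of the JNK and p38 branches changed in both directions, as did the tested genes at large. These branches hold stress kinases that DUSP1, DUSP4 and DUSP10 also act on, and the kinases upstream of them. Of 9 tested genes of the JNK and p38 branches 4 rose and 3 fell by limma at an adjusted p under 0.05. Of all genes tested, 20.9% rose and 23.0% fell. MAP2K4, which encodes the kinase MKK4 upstream of JNK, went from 10.4, 10.5 and 10.2 FPKM in the control libraries to 18.5, 19.7 and 19.4 FPKM in the knockdown libraries (log2 fold change 0.88 ± 0.05, limma adjusted p = 1.9e-07). It is 1 of the 5 carriers of GACGTA in the lists, of which 3 rose and 2 did not pass. That word was picked from these same data, so its part was not tested. Of the p38 genes, MAPK11 rose by 0.78 ± 0.09 and MAPK14 by 0.27 ± 0.04, while MAPK13 fell by 0.50 ± 0.05 on the log2 scale. MAPK12 (named after its values were seen) did not pass, at 8.31 FPKM in both groups. MAPK11 is a scarce transcript, at 1.06 FPKM in the control and 1.89 FPKM in the knockdown libraries.

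All of the 10 mRNAs but those of DUSP5 and DUSP7 carry the short AU-rich word ATTTA, which by itself does not mark a short-lived transcript. SPRED1 had 24 copies of ATTTA in its 3′ UTR of 5585 bases and DUSP1 had 4 in 672 bases, whereas DUSP5 and DUSP7 had 0. At least 1 copy was found in 70.1% of tested genes with a 3′ UTR, whose median length was 1100 bases. The longer word TATTTAT, in 33.2% of those genes, had 5 copies in SPRED1, 3 in DUSP1 and 0 in DUSP5 and DUSP7. Of the other genes, DUSP4 had 6 copies of ATTTA, SPRED2 had 5, ETV5 had 4, SPRY2 had 2, and DUSP6 and SPRY4 had 1 each. TATTTAT had 4 copies in DUSP4, 2 in SPRY2, 1 each in SPRED2 and ETV5, and 0 in DUSP6 and SPRY4. Of 6 tested regulators of labile mRNAs, ZFP36 (-0.37 ± 0.05) and ZFP36L1 (-0.25 ± 0.04), which promote decay of AU-rich transcripts, fell, and the other 4 did not pass. Of all genes tested, 23.0% fell. The part of these words and regulators in the changes of the 10 genes was not tested.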
